A study of Mus musculus with 6 samples.

Results

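The subunits of NuRD, the nucleosome remodelling and deacetylase complex, were followed in the apex of mouse hearts in which Fog2 could be deleted from heart muscle cells. The members were 10 genes, Mta1, Mta2, Mta3, Chd3, Chd4, Hdac1, Hdac2, Rbbp4, Rbbp7 and Mbd3, taken by gene symbol from the array annotation. They are 10 of 18194 annotated genes and were represented by 21 of the 45101 probe sets, where a probe set is a group of short probes that together report 1 transcript. In the hearts with Cre, Mta1 rose 1.67-fold and Chd3 rose 1.82-fold, and no other subunit passed the test. Of all tested probe sets, 5.23% passed. Both calls were lost when dim probe sets were kept in the fit. Of 4 tested probe sets of Rbbp4, 3 read lower in every heart with Cre than in any without, and none passed. The remaining Rbbp4 set differed by 0.0042. Separation in that direction was seen in 12.1% of all tested probe sets.

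NuRD joins histone deacetylation and nucleosome sliding in 1 complex and mostly lowers the activity of the genes it is brought to. Fog proteins, cofactors of the GATA transcription factors, carry a short N-terminal motif that docks onto NuRD through its Rbbp and Mta subunits and so can bring the complex to GATA target genes. The complex is assembled from families of paralogues: Mta scaffolds, a Chd motor, the deacetylases Hdac1 and Hdac2, histone-binding Rbbp proteins and Mbd3 or its relative Mbd2.

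The study compared 2 groups, each of 3 male mice aged 6 to 7 weeks, with 1 heart and 1 Affymetrix array per mouse. The first group was Fog2flox/delta with an alpha MHC Cre transgene, here called αMHC-Cre hearts. The second was Fog2flox/delta with no Cre. All 6 mice therefore had 1 floxed and 1 deleted copy of Fog2 (official symbol Zfpm2), and the no Cre hearts are heterozygous controls, not wild type. The αMHC promoter, that of Myh6, drives Cre in cardiomyocytes, so the other cells of the apex keep their floxed copy. Cre was present in no heart with intact Fog2, and what Cre does by itself cannot be told apart from what the deletion does.

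Log2 signals had array medians of 5.71 to 5.81, and correlations between arrays of the same group were 0.983 to 0.987 for αMHC-Cre hearts and 0.980 to 0.985 for no Cre hearts. Of 27022 probe sets tested with limma, 1412 passed an adjusted p of 0.05. Cardiomyocyte markers were present as the label asks, with a mean log2 signal over 8 markers of 13.29 to 13.35 in αMHC-Cre hearts and 13.23 to 13.28 in no Cre hearts. Of the 2 probe sets of Zfpm2, the dimmer read 5.46, 5.61 and 5.65 in αMHC-Cre hearts, against 6.34, 6.40 and 6.65 in no Cre hearts, and the brighter read 10.71, 10.48 and 10.50, against 8.86, 8.83 and 8.95. Both passed, in opposite directions, the dimmer at -0.88 ± 0.13 (SE; limma adjusted p = 0.00519) and the brighter at 1.68 ± 0.12 (adjusted p = 0.000143). In a fit that kept dim probe sets in, the brighter set still passed (adjusted p = 0.0144) and the dimmer did not (adjusted p = 0.0681). The sources used here do not place either within the transcript, so neither checks the deletion.

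Values are given as log2 signals, and differences are αMHC-Cre minus no Cre with the standard error (SE) of the limma fit. Signals of different probe sets depend on their probes, so a level is compared only within a probe set. Of the 21 member probe sets, 19 were bright enough to be tested, and each of the 10 genes kept at least 1. Among these 19, 2 rose and 0 fell at an adjusted p of 0.05. Over all tested probe sets the share that passed was 5.23%, with 3.43% higher and 1.79% lower in αMHC-Cre hearts. At an unadjusted p of 0.05 the members gave 6 sets, where 17.7% of all tested sets passed. In 8 of the 19 sets every heart of one group lay above every heart of the other, 3 of them higher and 5 lower with Cre. Such separation was seen in 23.5% of all tested probe sets, 11.4% higher and 12.1% lower. Those 8 are not independent, since 3 of them belong to Rbbp4. The median difference of the 19 was -0.063, and that of all tested probe sets was -0.018. In whole tissue, a change in the number of cells of a type and a change in RNA per cell cannot be told apart.

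**Figure D1:**
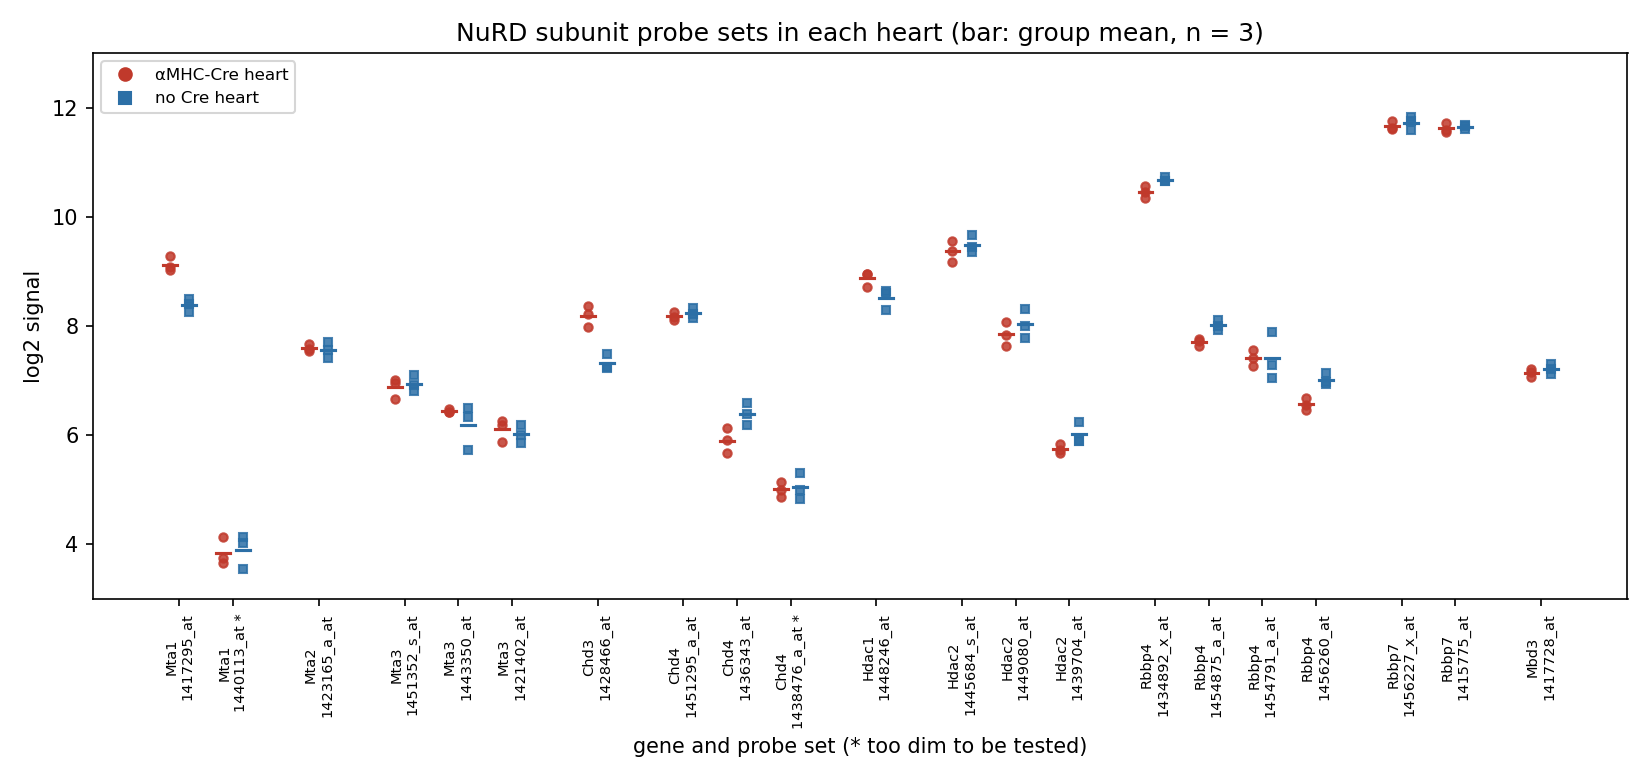
Log2 signal of each NuRD subunit probe set (y axis) in the 3 αMHC-Cre hearts (circles) and the 3 no Cre hearts (squares), with bars at the group means; heights are not comparable between probe sets. The Mta1 set 1417295_at and the Chd3 set 1428466_at separate most clearly, with every αMHC-Cre heart above every no Cre heart.

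Markers of other cells of the apex were compared beside the members. The 8 fibroblast markers had a mean log2 signal of 10.45 to 10.81 in αMHC-Cre hearts and 9.72 to 9.87 in no Cre hearts, and 5 of them rose. Their highest differences were those of Col1a1 (1.41), Postn (1.36) and Col1a2 (1.28). In the fit that kept dim probe sets in, none of the 5 passed. The limma adjusted p there was 0.111 for Col1a1, 0.0948 for Postn and 0.0515 for Col1a2. None of 8 endothelial, 8 macrophage, or 6 smooth muscle and pericyte markers passed, with 1, 0 and 1 at an unadjusted p of 0.05, and the ranges of their mean signals overlapped between the groups. The part of fibroblast RNA in the rises of Mta1 and Chd3 was not tested.

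Mta1, one of the scaffold subunits that tie the deacetylases into the complex, read 9.28, 9.08 and 9.02 in αMHC-Cre hearts, against 8.40, 8.26 and 8.50 in no Cre hearts, on probe set 1417295_at. The lowest αMHC-Cre heart was above the highest no Cre heart. The group means were 9.13 ± 0.14 and 8.39 ± 0.12 (SD, n = 3 each), a difference of 0.74 ± 0.13 (SE) with a 95% interval of 0.45 to 1.02 (limma adjusted p = 0.0111). The call was lost without αMHC-Cre 2, at a difference of 0.76 (adjusted p = 0.0501), and without the filter on dim probe sets (adjusted p = 0.0928), where 0.611% of 45037 probe sets passed. A second Mta1 probe set, 1440113_at, was too dim to be tested and read 3.66, 4.13 and 3.74 in αMHC-Cre hearts, against 4.13, 4.03 and 3.56 in no Cre hearts. Those groups overlapped, with a difference of -0.058 ± 0.21 in the fit of all probe sets, so the rise of Mta1 rests on 1 probe set.

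The other scaffolds did not pass. Mta2, on its only probe set, read 7.59, 7.67 and 7.54 in αMHC-Cre hearts, against 7.42, 7.56 and 7.71 in no Cre hearts. The groups overlapped, and the difference of 0.034 ± 0.12 (SE) had an interval of -0.24 to 0.31. Mta3 had 3 tested probe sets, all with overlapping groups, whose differences ran from -0.067 to 0.26 and were positive in 2 of 3. The set with the highest value, 1443350_at, read 6.42, 6.43 and 6.49 in αMHC-Cre hearts, against 5.74, 6.50 and 6.33 in no Cre hearts. Here no Cre heart 1 lay well below the other 5 hearts.

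Promoters are shown for Mta1, which among the 2 members that rose is the one with a promoter window. Chd4 is shown as the only member with letters of the kind GATA factors bind in a promoter window. RefSeq promoters of build GRCm38.p6, from 250 bases before to 50 after a start, were found for 7 of the 10 members, 8 windows in all, and Chd3, Hdac1 and Mta3 had none. The letters searched were GATA with A or T before it and A or G after it, on both strands. They were in 1 of the 8 windows and in 29.8% of the 32851 windows of the table. Chd4 had 2 overlapping windows, and the one not shown held no match. Capitals mark the match, which starts at base 64 of the Chd4 window shown and reads as such a word on the opposite strand. Both are on the plus strand, Mta1 at chr12:113098028-113098327 and Chd4 at chr6:125095731-125096030.
Mta1: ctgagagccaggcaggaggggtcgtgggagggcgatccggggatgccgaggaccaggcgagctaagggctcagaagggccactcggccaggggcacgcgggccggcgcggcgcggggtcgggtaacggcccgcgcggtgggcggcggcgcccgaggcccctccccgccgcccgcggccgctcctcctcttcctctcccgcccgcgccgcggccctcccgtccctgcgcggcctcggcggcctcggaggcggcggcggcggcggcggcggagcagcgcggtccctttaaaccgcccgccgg
Chd4: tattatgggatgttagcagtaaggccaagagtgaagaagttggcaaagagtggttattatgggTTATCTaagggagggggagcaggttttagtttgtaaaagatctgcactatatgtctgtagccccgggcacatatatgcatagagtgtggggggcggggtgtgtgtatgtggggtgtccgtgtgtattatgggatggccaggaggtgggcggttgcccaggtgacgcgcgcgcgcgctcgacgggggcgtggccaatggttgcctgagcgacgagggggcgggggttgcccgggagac
The Mta1 window had the highest GC share of the 8, at 81.0% with 50 CpG dinucleotides, and the 8 windows ran from 57.0% to 81.0%. The median over all windows of the table was 52.7%, with 7 CpG dinucleotides against 33 for the members' windows. A match or its absence in such a window says nothing about binding.

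Chd3, a helicase-type motor that moves nucleosomes with ATP, showed the largest difference of the 10 genes. It read 8.36, 8.23 and 7.98 in αMHC-Cre hearts, against 7.25, 7.23 and 7.49 in no Cre hearts, on its only probe set, 1428466_at. All αMHC-Cre hearts were higher than all no Cre hearts. The means were 8.19 ± 0.19 and 7.32 ± 0.14 (SD, n = 3 each), a difference of 0.87 ± 0.14 (SE) with an interval of 0.55 to 1.18 (limma adjusted p = 0.00881). This call too was lost without αMHC-Cre 2, at a difference of 0.85 (adjusted p = 0.0510), and without the filter (adjusted p = 0.0965). No further probe set of Chd3 was on hand to compare with.

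Chd4, the paralogous motor, did not pass on either tested probe set, and the sets differed in size. The brighter, 1451295_a_at, read 8.17, 8.11 and 8.26 in αMHC-Cre hearts, against 8.22, 8.14 and 8.33 in no Cre hearts. These groups overlapped, with a difference of -0.051 ± 0.11 (SE) and an interval of -0.31 to 0.21. The set 1436343_at read 5.90, 5.67 and 6.13 in αMHC-Cre hearts, against 6.38, 6.60 and 6.19 in no Cre hearts. Every αMHC-Cre heart was lower there, by -0.49 ± 0.16 on average (limma adjusted p = 0.132). The third set, 1438476_a_at, was too dim to be tested and differed by -0.042 ± 0.16 in the fit of all probe sets. Averaged over the 2 tested sets, Chd4 differed by -0.27 (adjusted p = 0.209). Set against each other within each heart, the changes of the 2 tested sets differed by 0.44, with p = 0.2 in a two-sided exact permutation test (0.45 after Benjamini-Hochberg adjustment over 9 such contrasts within genes). With 3 hearts against 3 that test cannot give less than 0.1.

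The catalytic deacetylases Hdac1 and Hdac2 had differences of opposite sign, and neither passed. Hdac1, on its only probe set, read 8.96, 8.72 and 8.96 in αMHC-Cre hearts, against 8.65, 8.29 and 8.60 in no Cre hearts. The groups did not overlap, and the difference was 0.36 ± 0.14 (SE), with an interval of 0.048 to 0.68 (limma adjusted p = 0.208). Hdac2 had 3 tested probe sets, all with lower means in αMHC-Cre hearts. The brightest, 1445684_s_at, differed by -0.12 ± 0.14, and 1449080_at by -0.19 ± 0.17, both with overlapping groups. The set 1439704_at read 5.84, 5.67 and 5.74 in αMHC-Cre hearts, against 5.90, 5.89 and 6.25 in no Cre hearts. The groups stood apart by a narrow margin, with a difference of -0.26 ± 0.14 (adjusted p = 0.361).

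Rbbp4 and Rbbp7 encode WD40 proteins that bind histones, and their surface receives the Fog motif. Rbbp4 had 4 tested probe sets, of which 3 were lower in every αMHC-Cre heart than in any no Cre heart. The set 1456260_at read 6.47, 6.69 and 6.55 in αMHC-Cre hearts, against 6.94, 7.13 and 6.97 in no Cre hearts. Its difference of -0.44 ± 0.12 (SE), with an interval of -0.72 to -0.17, did not pass (limma adjusted p = 0.0735), although it did once the 60% of probe sets with the lowest means were left out. The set 1454875_a_at read 7.73, 7.64 and 7.76 in αMHC-Cre hearts, against 8.01, 7.93 and 8.10 in no Cre hearts. It differed by -0.30 ± 0.11 (adjusted p = 0.193), and the brightest set, 1434892_x_at, by -0.23 ± 0.11 (adjusted p = 0.355). The remaining set, 1454791_a_at, read 7.56, 7.41 and 7.27 in αMHC-Cre hearts, against 7.29, 7.06 and 7.89 in no Cre hearts. Its no Cre hearts spread widely around the αMHC-Cre hearts, and its difference was 0.0042 ± 0.20. Averaged over the 4 sets, Rbbp4 differed by -0.24 (adjusted p = 0.231).

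Rbbp7 gave nearly the same answer on both of its probe sets. The set 1415775_at read 11.71, 11.56 and 11.59 in αMHC-Cre hearts, against 11.69, 11.61 and 11.65 in no Cre hearts. The groups overlapped, with a difference of -0.030 ± 0.11 (SE) and an interval of -0.28 to 0.22, and 1456227_x_at differed by -0.063 ± 0.12. Mbd3, the methyl-CpG-binding-domain protein that links the deacetylase part to the motor, read 7.22, 7.06 and 7.16 in αMHC-Cre hearts, against 7.11, 7.22 and 7.31 in no Cre hearts. Its groups overlapped as well, with a difference of -0.065 ± 0.12 and an interval of -0.33 to 0.20. For these genes, changes that lie inside the interval are not excluded with 3 hearts per group.

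**Figure D2:**
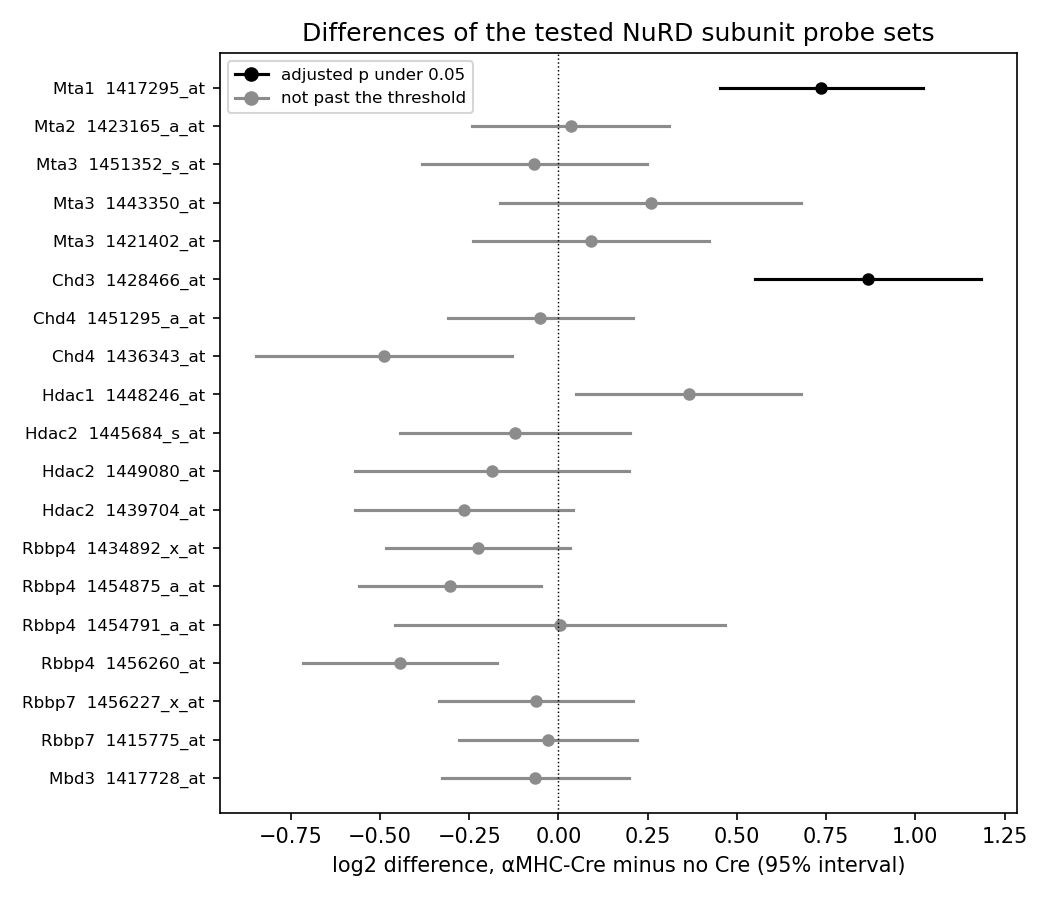
Log2 difference, αMHC-Cre minus no Cre (x axis), with 95% interval for each of the 19 tested NuRD subunit probe sets (rows); black marks an adjusted p under 0.05. The Mta1 difference of 0.74 and the Chd3 difference of 0.87 stand to the right, and 3 of the 4 Rbbp4 sets lie left of 0.

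Agreement between probe sets could be judged for the 5 genes with more than 1 tested set. All tested sets had the same sign for Chd4, Hdac2 and Rbbp7, and 1 set differed in sign from the rest for Mta3 and for Rbbp4. Within each heart, the change of Mta3 set 1451352_s_at minus that of 1421402_at was -0.16. The two-sided exact permutation test gave p = 0.1 there (0.45 after Benjamini-Hochberg adjustment over all such contrasts). It cannot give less, so that contrast could not pass. The range of differences within a gene was 0.033 for Rbbp7, 0.14 for Hdac2, 0.33 for Mta3, 0.44 for Chd4 and 0.45 for Rbbp4. Affymetrix gives the suffix _s_at or _x_at to sets whose probes can also match transcripts of other genes. It is carried by 4 of the 21 sets, 1 each of Mta3, Hdac2, Rbbp4 and Rbbp7, and these are the brightest of their genes. For them a signal from a related transcript cannot be separated, whereas the sets of Mta1 and Chd3 that rose carry no such suffix.

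The ratio of paralogous subunits was followed within each heart, a comparison chosen after the members' values had been seen. Each gene was taken through its brightest tested probe set. The Chd3/Chd4 ratio, relative to its no Cre mean, was 1.10, 1.03 and 0.63 in αMHC-Cre hearts on the log2 scale, against -0.06, -0.0049 and 0.07 in no Cre hearts. The Mta1/Mta2 ratio was 0.87, 0.58 and 0.66 in αMHC-Cre hearts, against 0.16, -0.12 and -0.04 in no Cre hearts. Both ratios were higher in every αMHC-Cre heart, as were Mta1/Mta3, by 0.80, and Hdac1/Hdac2, by 0.49. Mta2/Mta3 (0.10) and Rbbp4/Rbbp7 (-0.16) had overlapping groups. For each of the 4 ratios without overlap the two-sided exact permutation test gave p = 0.1 (0.15 after Benjamini-Hochberg adjustment over the 6 pairs). With 3 hearts against 3 it cannot give less, so no ratio could pass and the test decides nothing here. The ratios with Mta1 or Chd3 reuse the values behind those calls and add no further support to them. No share over other pairs of genes is given beside these 4. A set with the suffix _s_at or _x_at enters the ratios with Hdac2 or Mta3 and the Rbbp4/Rbbp7 ratio, and none enters Mta1/Mta2 or Chd3/Chd4.

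**Figure D3:**
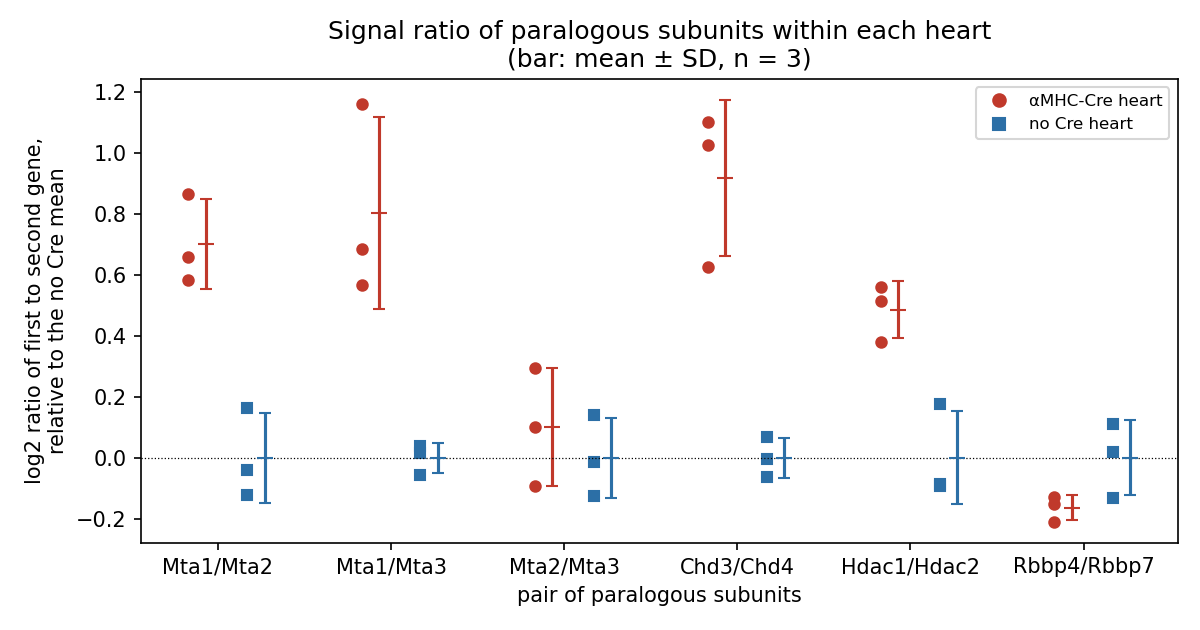
Log2 signal ratio of paired subunits within each heart, relative to the mean ratio of the no Cre hearts (y axis), for 6 pairs of paralogues (x axis); circles are αMHC-Cre hearts, squares no Cre hearts, and bars the mean ± SD (n = 3). Mta1/Mta2, Mta1/Mta3, Chd3/Chd4 and Hdac1/Hdac2 are higher in all αMHC-Cre hearts.

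Related genes were read from the same fit, each through its brightest probe set, where 6.24% of all 13062 tested genes passed, 4.2% higher and 2.04% lower. Of the 4 tested genes among 5 further NuRD subunits none passed, and Gatad2a, a bridging subunit, differed by 0.19 ± 0.12 (SE) (limma adjusted p = 0.469). At an unadjusted p of 0.05 that list held 0 genes, against 19% of all genes. Among 13 tested proteins that recruit NuRD or associate with it, 2 rose and 0 fell. They were Zfpm1, which encodes Fog1, the other Fog protein, and Zfpm2 through its brighter set, while the dimmer Zfpm2 set passed as lower. Zfpm1 read 8.93, 8.74 and 8.61 in αMHC-Cre hearts, against 8.04, 7.94 and 8.06 in no Cre hearts, a difference of 0.75 ± 0.12 (adjusted p = 0.010). Without the filter on dim probe sets Zfpm1 did not pass (adjusted p = 0.0867). At an unadjusted p of 0.05 the list of 13 held 3 genes, against 19% of all genes. Bcl11a was among them, at -0.43 ± 0.15 (adjusted p = 0.163), and was lower in every αMHC-Cre heart. Of the GATA partners, none of 3 passed, with Gata4 at 0.23 ± 0.13 (adjusted p = 0.424) and overlapping groups, and 0 of the 3 had an unadjusted p under 0.05.

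Other corepressor and chromatin complexes showed no call. Sin3 and CoREST share Hdac1 and Hdac2 with NuRD, PRC2, CAF-1 and NURF share Rbbp proteins, and NCoR/SMRT is built on Hdac3 instead. None passed among 12 tested genes of the Sin3 complex, 9 of the CoREST complex and 4 of the NCoR/SMRT complex, or among 11 of PRC2, CAF-1 and NURF (limma, adjusted p under 0.05). At an unadjusted p of 0.05 these lists held 1, 0, 0 and 1 genes. The 2 were Sinhcaf, at 0.31 ± 0.12 (SE; adjusted p = 0.225), and the PRC2 methyltransferase Ezh1, at -0.33 ± 0.12 (adjusted p = 0.188). The list medians lay between -0.04 and 0.04, beside -0.011 for all tested genes and -0.057 for the 10 members.

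Among relatives of the catalytic members, 1 of 8 tested other histone deacetylases passed. At an unadjusted p of 0.05 that list held 2 genes, against 19% of all genes. Of these, Hdac4 differed by -0.53 ± 0.21 (SE; limma adjusted p = 0.216) with overlapping groups. The gene that passed was Hdac6, the mainly cytoplasmic tubulin deacetylase. It read 8.49, 8.26 and 8.33 in αMHC-Cre hearts, against 7.60, 7.34 and 7.43 in no Cre hearts. Its groups were well apart, and it rose by 0.90 ± 0.13 (SE; limma adjusted p = 0.00434). This call was lost without the filter on dim probe sets (adjusted p = 0.0582). None passed among 6 other Chd remodellers or 4 other Mbd-family genes, with unadjusted p under 0.05 for 1 and 0 of them. The 1 was Chd6, at -0.76 ± 0.22 (adjusted p = 0.0862) with overlapping groups.

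A list of fast skeletal muscle genes was read, with Acta1, the general skeletal actin, among them. The reason was that NuRD with Chd4 is known to keep fast skeletal genes silent in mouse heart muscle. Of 14 genes, 7 were bright enough to be tested, and only Acta1, the skeletal α-actin, passed. At an unadjusted p of 0.05 the list held 5 of the 7, against 19% of all genes, and these differed in both directions. Acta1 is also a known marker of a stressed heart, and it rose by 2.30 ± 0.27 (SE; limma adjusted p = 0.00174). It read 12.59, 13.10 and 13.39 in αMHC-Cre hearts, against 11.30, 10.46 and 10.42 in no Cre hearts. Its call was lost without the filter on dim probe sets (adjusted p = 0.0698). Atp2a1, the fast skeletal calcium pump, read 5.93, 5.91 and 6.23 in αMHC-Cre hearts, against 6.69, 6.50 and 6.47 in no Cre hearts. All its αMHC-Cre hearts were lower, by -0.53 ± 0.13 on average, without passing (adjusted p = 0.0581). The other three of the 5, named after their values were seen, were the fast troponin Tnni2 at -0.35 ± 0.14 (adjusted p = 0.209), the fast myosin Myh2 at -0.48 ± 0.18 (adjusted p = 0.181) and the myosin light chain Mylpf at 0.48 ± 0.18 (adjusted p = 0.206). Tnni2 and Myh2 were lower in every αMHC-Cre heart, and the groups overlapped for Mylpf. The median of the 7 was -0.12.

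**Figure D4:**
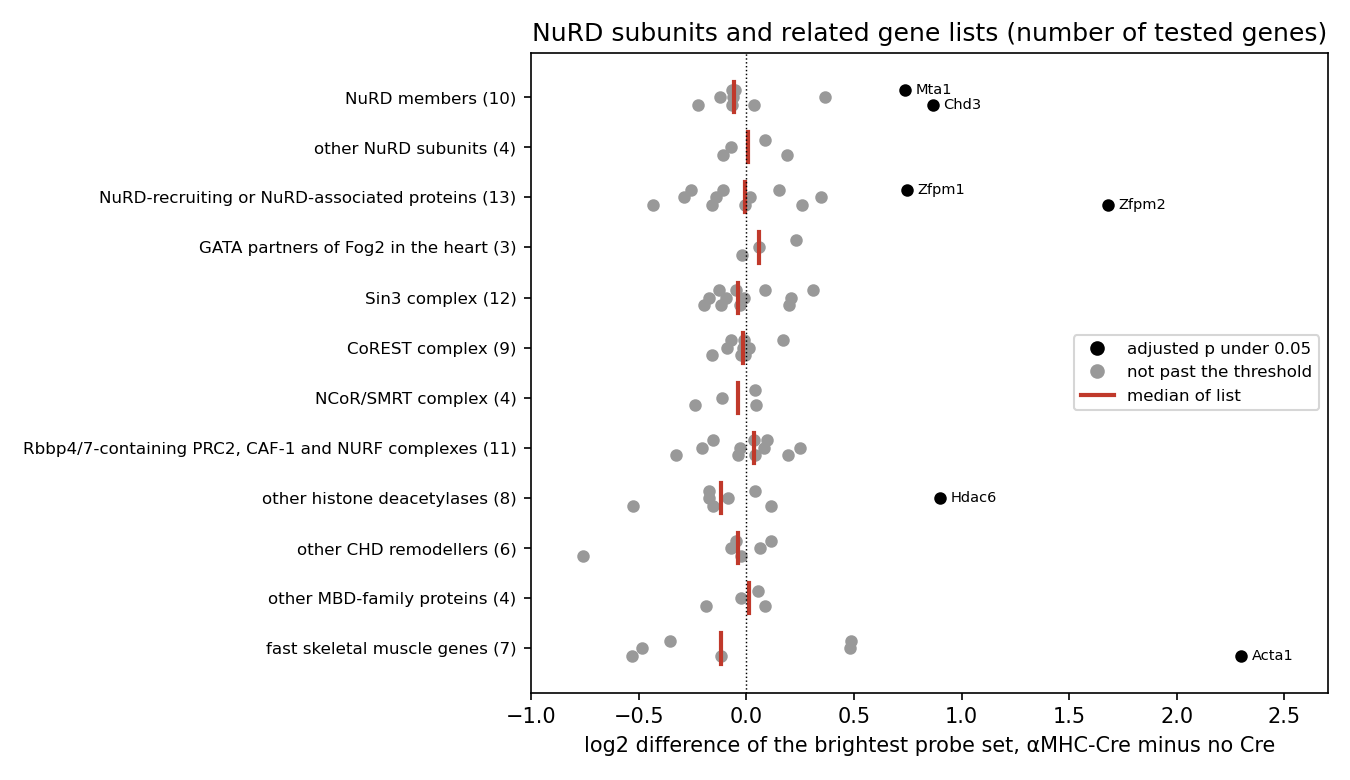
Log2 difference, αMHC-Cre minus no Cre (x axis), of each tested gene in the NuRD list and 11 related lists (rows), with black points for an adjusted p under 0.05 and red bars at the list medians. Mta1, Chd3, Zfpm1, Zfpm2, Hdac6 and Acta1 are the genes that passed, while the medians stay between -0.12 and 0.06.

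The genes whose pattern across the 6 hearts was most like that of Chd3, the member with the lowest p, were Cab39, Arhgap31 and Hyal2. Their Pearson correlations with Chd3 were 0.999, 0.997 and 0.997. The hearts fall into 2 groups that differ in all 4 genes, so these values are a description and carry no p.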

How the data were processed

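Total RNA of the heart apex was hybridised to 1 array per heart. Each probe set has 1 log2 value for each array as deposited, made with PLIER per the submitters' processing notes. Settings and scaling of that step are not stated in the sources used here, and base 2 was inferred from array maxima of 13.97 to 14.00. The number of arrays limits the precision.

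Computed here with limma 3.58.1 in R 4.3.3: control probe sets (64) and the dimmest 40% of the rest, with means under 5.16, were left out, and 27022 probe sets were fitted (lmFit, eBayes, two-sided) and p-values adjusted by Benjamini-Hochberg over all of them. Array medians differed by under 0.1, so no normalization was added. Annotation gave 34945 probe sets 1 symbol, 932 several and 9160 none, and 0 of those with several named a member. The Entrez numbers of 34741 were found in the RefSeq table. A gene is represented by its brightest tested probe set. Members and lists were chosen with earlier results of these data known. Named were all members, Zfpm2, and per list up to 4 genes past the threshold or up to 2 with the lowest p, besides the 3 genes most like the leading member. Of the marker lists, the 8 dividing-cell markers had only 2 tested genes, of which 0 passed, also at an unadjusted p of 0.05. Alternatives covered filters, scaling, variance models, offsets, thresholds and single hearts. The procedure was tested on simulated data with independent normal noise. Every planted change there was larger than the rises of Mta1 and Chd3.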

Additional observations from a re-analysis of the deposited data

How the results depend on the processing

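The 2 member calls, Mta1 and Chd3, were kept with quantile normalization, median centring, trend and robust variances, array weights, the replicate block, and 16 or 64 added to the unlogged signal. They were kept as well with the 60% filter, which added 1 set of Rbbp4. Without a filter 0 member sets passed (6 at an unadjusted p of 0.05). In the main fit with its filter, 1 member set passed at a threshold of 0.01 and 3 at 0.1. Leaving out 1 heart gave 0 to 2 member sets, with 0 only without αMHC-Cre 2 (4 at an unadjusted p of 0.05). Of all probe sets, 275 passed without a filter, 909 with the replicate block, 2220 at a threshold of 0.1 and 529 at 0.01, and 600 to 1075 with 1 heart left out, the lowest without αMHC-Cre 2 (913 without no Cre 1, 923 without αMHC-Cre 1, 905 without αMHC-Cre 3). The fits with 1 heart left out use fewer hearts, and the fit without a filter adjusts over more probe sets. The cause of the lower count with the replicate block was not tested. Of 160 values of single members under alternatives, 151 kept direction and call, 4 lost the call and 5 changed sign. The last were Mta2, at -0.040 without no Cre 1 and -0.0023 without αMHC-Cre 2 (range with 1 heart left out -0.040 to 0.11), and Mta3, at 0.015 without no Cre 3, 0.035 without αMHC-Cre 1 (range -0.14 to 0.035) and 0.094 as the mean over its probe sets. None of these passed. Deviations of same-numbered hearts had correlations of -0.06, 0.21 and -0.19, and only replicate 2 matched its own number best. With so few hearts per group this cannot settle whether the numbers pair the hearts. No detection calls were used here, so whether a dim set lies above background is not known.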
